A study of Homo sapiens with 3 samples.

Results

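MATR3 (matrin 3), a nuclear matrix protein with RNA recognition motifs and zinc fingers, was profiled by PAR-CLIP with a MATR3 antibody in untreated HEK293 cells of wild-type genotype (HEK293-WT), an established human embryonic kidney line. In PAR-CLIP a photoreactive uridine analogue is crosslinked to the bound protein, and crosslinked positions are read as T-to-C changes. The 3 biological replicates form a single group, and no input, knockout or other control library was analysed here. The clusters described here are those that the authors' annotation column places in 3′ UTRs, without the mitochondrial chromosome. Replicates 1, 2 and 3 held 6462, 6400 and 6847 of them, together 19709 of 388807 clusters.

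A 3′ UTR is the part of a mature mRNA between the stop codon and the poly(A) tail, where binding proteins and microRNAs are known to act on stability, localisation and translation. MATR3 is known mainly for binding pyrimidine-rich sequence in introns, often beside PTB (polypyrimidine tract-binding protein), and for effects on splicing. In the nucleus, unspliced and fully spliced transcripts both carry their 3′ UTR.

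The class label was first set against GENCODE release 44. The cluster midpoint lay in an annotated 3′ UTR exon of the same strand in 98.5% ± 0.24 of clusters (SD, n = 3). It lay in the 3′ UTR of a MANE Select transcript, the reference transcript chosen for each gene, in 90.0% ± 0.67. A further 7% ± 0.33 lay in an intron of a MANE Select transcript and 1.86% ± 0.26 within 5000 nt downstream of one (SD, n = 3). More than 1 gene had a 3′ UTR at the midpoint in 1.16% ± 0.079 of clusters.

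The 3′ UTR clusters held 97830, 88228 and 104293 reads in replicates 1, 2 and 3, from 33578, 38064 and 36270 distinct reads. The median cluster had 11, 9 and 11 reads, against 9, 8 and 9 for intron clusters, and 4 distinct reads in each replicate. Clusters with at most 2 distinct reads made up 25.1% ± 3.42 (SD, n = 3). No molecular identifiers were used here, so counts can include copies of one molecule. The depth of the whole libraries is unknown here.

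Sites at which 3′ UTR clusters of all 3 replicates overlap in a common stretch numbered 159, in 137 genes. They are the positions that recur, so the 12 with the largest geometric mean of reads are described first. For 10 of them up to 30 bases from the middle of the common stretch are shown, 5′ to 3′ on the transcript strand, in hg38, with every run of at least 5 pyrimidines in capitals because pyrimidine 5-mers lead the sequence comparison:
SLC7A1: gagacagaaggcccatgctgatgggggagg
PLAGL2: tcctgtaccagcaCCTCCgTTTTCagtcag
HIC2: aggttgctgatctcagtcccactgTCTTCa
CDKN1A: atgtgtcctggTTCCCgTTTCTCCa
TARS: tatacccgtggtttgccaggggCCTTCTgg
GOSR2: gtaacactctgTTTTCagggactacaacct
B4GALT5: gggagctggCTTCTgTCCCTTTCTTCCCCC
FAM134C: gatgatacagtagcactttacaaatggctc
SOGA1: gTTTTCCCCaTCTCCaCTCTCTCTTCaacc
RPL28: aggcccaggcagtggggacacatccagagt

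The 2 others lay in LUZP1 and CIPC and held no such run in this window. Of the 12 windows, 7 held at least 1 run and 5 held none. Such a run was present in 78.9% of all 3′ UTR clusters and in 70.1% of the flanks defined below (means over replicates). Clusters had a median of 40.3 nt (mean over replicates) and the windows at most 30, so these shares are over unlike lengths. The 12 windows thus cannot show whether such runs are in excess. SOGA1, a microtubule-associated protein now named MTCL2, had 3 runs in 30 bases (chr20:36783538-36783567, minus strand), and its clusters held 31, 53 and 47 reads in replicates 1, 2 and 3.

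The SLC7A1 site (chr13:29513018-29513047, minus strand) had clusters with 46, 125 and 116 reads in replicates 1, 2 and 3. SLC7A1 encodes the cationic amino acid transporter CAT-1, and the site lay 1450 nt into a 3′ UTR of 5069 nt. The PLAGL2 site (chr20:32195895-32195924, minus strand) had 344, 76 and 16 reads. PLAGL2 is a zinc finger transcription factor, and replicate 1 was far above the others there. The HIC2 site (chr22:21448450-21448479, plus strand) had 48, 102 and 60 reads. HIC2 is a transcriptional repressor, and replicate 2 was highest there.

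The CDKN1A site (chr6:36687187-36687211, plus strand) had 29, 92 and 69 reads and lay 1378 nt into a 3′ UTR of 1540 nt. CDKN1A encodes the cyclin-dependent kinase inhibitor p21. The B4GALT5 site (chr20:49635447-49635476, minus strand) had 11, 97 and 94 reads, with replicate 1 low. B4GALT5 is a galactosyltransferase, and its window ended in pyrimidines. The TARS site (chr5:33469220-33469249, plus strand) had 42, 55 and 72 reads. TARS, threonyl-tRNA synthetase, is the exception among the 12 in that its site lay outside the GENCODE 3′ UTRs, downstream of the MANE Select transcript. The LUZP1 site lay in a GENCODE 3′ UTR but also outside the MANE Select 3′ UTRs.

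SLC7A1 had 4 shared sites, the most of any gene, and 3 of them fell within 1 long cluster of replicate 2 with 125 reads. Shared sites that touch the same cluster are not independent of each other. The 3 sites began at 29512985, 29513087 and 29513134, with 46, 8 and 13 reads in replicate 1 and 116, 26 and 26 in replicate 3. The remaining one began at 29510411, with 21, 14 and 11 reads.

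The motif described for MATR3 is AUCUU. Written as DNA, ATCTT lay in the common stretch of 11 of the 159 shared sites (6.92%). It was held by 8.20% of all 3′ UTR clusters and 5.72% of flanks. The common stretches had a median of 30 nt and the clusters of 40.3 nt (mean over replicates), so these shares are over unlike lengths. Of the 11 sites, those with most reads are shown with ATCTT in capitals, to place the motif in its context:
HYOU1: gtcataatctgcATCTTcccagcagcctgg
RBM23: ttccATCTTcctttgtatacttgtccttcc
ASH1L: tctcttcacccctagcccATCTTccctcac
DR1: tggctATCTTtggaggccgttattcaacct

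HYOU1, an endoplasmic reticulum chaperone, had 17, 52 and 48 reads at its site (chr11:119044772-119044801, minus strand). RBM23, an RNA-binding protein, had 31, 19 and 21 reads (chr14:22900983-22901012, minus strand). ASH1L, a histone methyltransferase, had 33, 15 and 23 reads (chr1:155336612-155336641, minus strand). DR1, a repressor that binds TBP, had 7, 75 and 18 reads (chr1:93363748-93363777, plus strand), with replicate 2 far above the others.

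The first comparison asked which genes carry 3′ UTR clusters and whether the replicates name the same ones. A 3′ UTR cluster was present in 2831, 2887 and 2946 genes of replicates 1, 2 and 3. Of 4566 genes with one in any replicate, 1437 had one in all 3, 1224 in 2 and 1905 in 1. The 1437 genes held 68.9% of all 3′ UTR clusters. In each replicate 51.7% ± 0.32 of the genes had a single 3′ UTR cluster (SD, n = 3).

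Reads were spread over many genes. The 10 genes with most 3′ UTR reads held 4.41% ± 0.68 of them and the 100 with most held 23.5% ± 0.45 (SD, n = 3). Across the 1845, 1828 and 1862 genes shared by replicates 1 and 2, 1 and 3, and 2 and 3, Spearman's rho of 3′ UTR reads was 0.579, 0.589 and 0.575. For intron reads, rho was 0.856, 0.862 and 0.852 across 7943, 7800 and 7830 genes. These are correlations across genes, which are not independent replicates, and 3′ UTR counts per gene are smaller than intron counts.

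The share of genes bound differed with the length of the annotated 3′ UTR. Among protein-coding genes whose longest 3′ UTR is under 500 nt, 3 of 4384 had a cluster in all 3 replicates (0.0684%). The share was 2.08% from 500 nt, 5.38% from 1000 nt, 11.6% from 2000 nt and 19.1% (550 of 2879) from 4000 nt. The median longest 3′ UTR was 3299 nt in genes with clusters in all 3 replicates and 1196.5 nt in genes with none. Expression was not available here, so the share of transcribed genes in each length class is unknown.

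**Figure D1:**
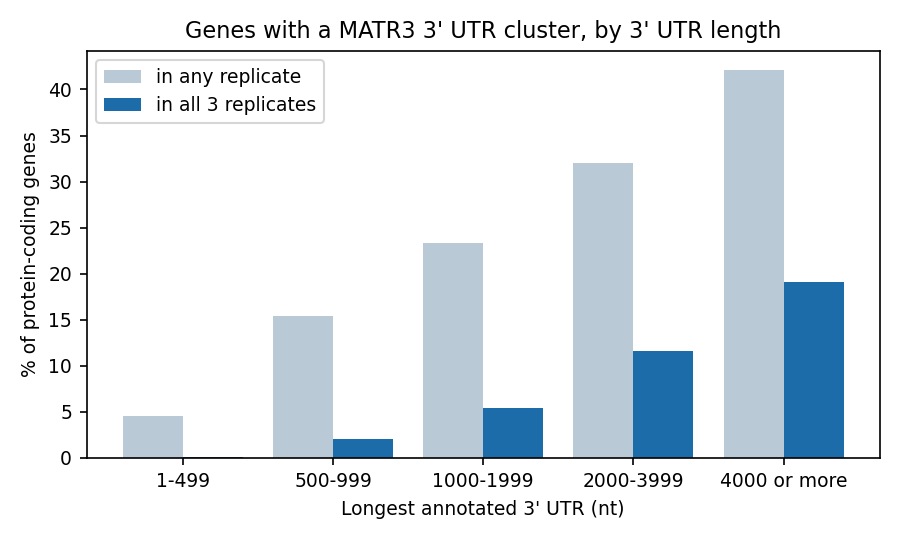
Share of protein-coding genes with a MATR3 3′ UTR cluster (vertical axis, percent) by the length of the longest annotated 3′ UTR (horizontal axis, nt), in any replicate (light bars) and in all 3 replicates (dark bars). The dark bars go from 0.0684% under 500 nt to 19.1% from 4000 nt.

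Ranked by the geometric mean over replicates of their share of 3′ UTR reads, the leading 25 genes are given as normalised reads, that is, reads per 1000000 3′ UTR reads of the replicate. Levels are compared between genes per kb of the longest annotated 3′ UTR. The median of the 25 was 390 normalised reads per kb, against 117 over the genes with clusters in all 3 replicates and a known length. The choice of the genes sets the first value, so it is a description only. Among the 25, the coefficient of variation over replicates had a median of 28.0%, and it went from 4.92% to 68.8%.

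ARIH1, an E3 ubiquitin ligase of the ariadne family, led with 394, 235 and 803 3′ UTR reads in replicates 1, 2 and 3. These came from 16, 13 and 34 clusters along a 3′ UTR of 19698 nt, which gives 244 normalised reads per kb ± 132 (SD, n = 3), below the median of the 25 and above that of the genes bound in all replicates. PLAGL2 had 787, 171 and 387 reads and 1155 normalised reads per kb ± 795. Replicate 1 raised that mean, with 8045 normalised reads against 1938 and 3711 in the others.

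SLC7A1 had 351, 466 and 355 reads, or 807 normalised reads per kb ± 204 (SD, n = 3), in 14, 13 and 13 clusters. It was the only one of the 25 that also belonged to the 10 nuclear genes with most reads over all classes, with 1910, 1181 and 1608 intron reads. Its 3′ UTR held 20.6% ± 6.76 of its 3′ UTR and intron reads together.

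The other genes of the 25 are given by known role, as an order of presentation only. AGO2, the slicing Argonaute protein of microRNA silencing, had 419, 340 and 324 reads in 22, 16 and 18 clusters. Its 315 normalised reads per kb ± 50.1 varied little among replicates. TNRC6B, a GW182 protein that Argonaute recruits, had 147, 260 and 182 reads over a 3′ UTR of 12570 nt.

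EDC3, an enhancer of mRNA decapping, had 230, 168 and 188 reads and 982 normalised reads per kb ± 142. CELF1, an RNA-binding protein of splicing and mRNA decay, had 157, 365 and 157 reads, with replicate 2 above the others. Both also had intron reads in each replicate, 468, 310 and 312 in EDC3 and 876, 611 and 550 in CELF1.

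HIC2 had 238, 229 and 246 reads, the most even of the 25, at 521 normalised reads per kb ± 25.6 (SD, n = 3). Its intron reads were few, 7, 28 and 18. ATXN1L, a paralogue of ataxin-1, had 208, 292 and 283 reads.

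The Mediator subunit gene MED28 had 197, 309 and 266 reads. MED22 had 198, 223 and 207 reads and no intron cluster in any replicate. Of its 35 clusters over the replicates, 13 lay in a MANE Select 3′ UTR and 22 in an intron of a MANE Select transcript. ZNF746, a repressor with zinc fingers, had 339, 186 and 301 reads, and all of its 29 clusters lay in an intron of the MANE Select transcript, so they belong to a 3′ UTR of another isoform or to the intron. In 21 of the other 23 genes all clusters were in MANE Select 3′ UTRs, with HIC2 (29 of 30) and PDXK (41 of 45) as exceptions.

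KPNA6, an importin alpha that carries proteins into the nucleus, had 463, 129 and 378 reads. EPN1, an epsin of clathrin-coated pits, had 496, 266 and 240 reads in 25, 15 and 18 clusters. RAB5B, a GTPase of early endosomes, had 169, 158 and 428 reads, and SFT2D2 had 191, 369 and 365. In KPNA6, EPN1, RAB5B and SFT2D2 1 replicate stood apart from the other pair, the second in KPNA6, the third in RAB5B and the first in EPN1 and SFT2D2.

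HIF1AN, the asparagine hydroxylase that acts on HIF-1 alpha, had 147, 327 and 383 reads, and its introns held 32, 4 and 40. GRWD1, a ribosome biogenesis factor, had 98, 277 and 342 reads against 0, 7 and 45 in introns. In these genes, in HIC2 and in MED22 clusters classed as 3′ UTR held over 90% of the 3′ UTR and intron reads as a mean over replicates. Lower single values were 82.1% for HIF1AN in replicate 1, 89.1% for HIC2 in replicate 2 and 88.4% for GRWD1 in replicate 3. The share of MED22 follows the authors' class label, and 22 of its 35 clusters lay in an intron of a MANE Select transcript. Further genes of the 25 were SOGA1, RBM28, JRK, PDXK, FAM219B and UHMK1, with means from 2069 to 3117 normalised reads.

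**Figure D2:**
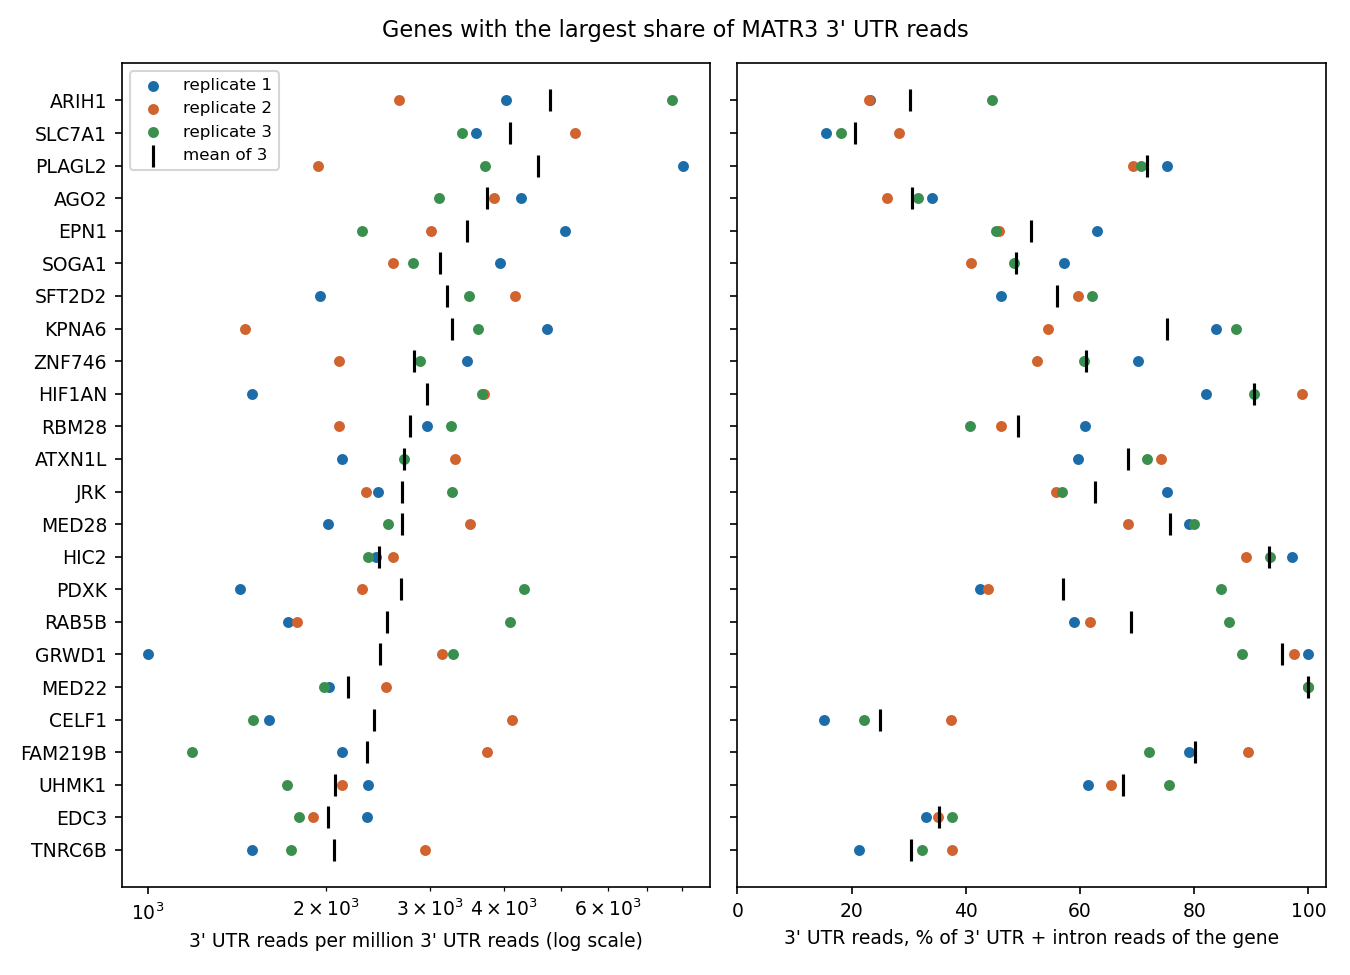
Genes among the leading 25 by MATR3 3′ UTR reads, in rank order from the top, with 1 of the 25 not shown. Left, 3′ UTR reads per 1000000 3′ UTR reads of the replicate (log axis); right, 3′ UTR reads as a percentage of the 3′ UTR and intron reads of the gene. Coloured points are the 3 replicates and black ticks their mean. The percentage goes from a mean of 20.6% in SLC7A1 to 100% in MED22, and the replicates of PLAGL2 lie far apart in the left panel. The percentages follow the authors' class label, and 22 of the 35 MED22 clusters lay in an intron of a MANE Select transcript.

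Of the 10 genes with the most reads over all classes, 9 were not among the 25. PVT1, a long noncoding RNA, has no annotated 3′ UTR. ANKRD11, a chromatin regulator, had 5741, 3958 and 5593 intron reads and no 3′ UTR cluster in any of the 3 files. SND1 and HUWE1 had none either, with 2888, 2068 and 2361, and 1810, 1318 and 2187 intron reads. The longest annotated 3′ UTR had 538 nt in SND1 and 1216 nt in HUWE1, but 8154 nt in ANKRD11. TBCD had 1 3′ UTR cluster of 5 reads in replicate 2, and 3692, 3524 and 3678 intron reads.

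THSD4 had 7, 0 and 6 3′ UTR reads and TTC28 had 0, 16 and 0. GRB10, an adaptor protein of receptor signalling, had 5, 13 and 31. PRRC2B, an RNA-binding protein, was higher, with 98, 96 and 93 3′ UTR reads, 5.15% ± 0.68 of its 3′ UTR and intron reads. MATR3 itself had 1 3′ UTR cluster of 5 reads in replicate 1 and none in the others, while its introns held 486, 240 and 398 reads. A cluster needed at least 4 reads to be listed, so lower binding was not detectable.

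Of the 1437 genes with 3′ UTR clusters in all replicates, 1163 (80.9%) also had an intron cluster in all 3 and 107 (7.45%) had none in any. No intron cluster was listed for these 107 genes. A single-exon gene such as HNRNPA0 has no intron and falls among them by its structure. Intron reads were common, with 7943, 7800 and 7830 genes shared by replicates 1 and 2, 1 and 3, and 2 and 3. The share of all genes with an intron cluster in all 3 replicates was not computed, so the 80.9% cannot be read as an excess.

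Gene lists were read against the background of protein-coding genes. A 3′ UTR cluster in all 3 replicates was found in 7.15% of the 20007 protein-coding genes and in 12.8% of the 11160 that had a cluster of any class in any replicate. The lists consist of genes that differ in 3′ UTR length and expression from the background, so no test was made.

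Of the microRNA pathway, 8 of 14 members (57.1%) had a 3′ UTR cluster in all 3 replicates, and the median longest 3′ UTR of the list was 4420 nt. They were AGO1, AGO2, AGO3, DGCR8, DICER1, TNRC6A, TNRC6B and XPO5. AGO1, an Argonaute protein, had 119, 122 and 104 reads. DGCR8, the partner of Drosha in primary microRNA processing, had 31, 27 and 6 reads, with replicate 3 low.

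Among nuclear transport receptors 11 of 26 (42.3%) had clusters in all replicates, with a median 3′ UTR of 2941 nt. After KPNA6 the largest mean was that of TNPO2, a transportin, with 185, 8 and 244 reads, and replicate 2 was far below the others. NXF1, the main mRNA export receptor, had 153, 90 and 72 reads, but all 11 of its clusters lay in a MANE Select intron. KPNB1, importin beta, had 70, 54 and 77 reads.

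The hnRNP list, which includes PTB proteins, had 10 of 24 members (41.7%) with clusters in all replicates. HNRNPUL2 had 188, 23 and 69 reads and HNRNPA2B1 had 144, 22 and 68, so both varied widely. HNRNPA0, a single-exon gene of this family, had 52, 73 and 57. Of PTBP2, the neuronal PTB protein, 1 of 10 clusters lay in a MANE Select 3′ UTR and 8 lay downstream of the transcript.

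SR proteins, which promote exon inclusion, had 4 of 14 members (28.6%), namely SRSF1, SRSF6, SRSF7 and TRA2B. SRSF6 led these with 26, 80 and 36 reads. Of 3′ end processing factors, 5 of 20 (25%) were counted. Their members with most reads were WDR33, with 61, 57 and 36 reads, and PAPOLA, the poly(A) polymerase, with 18, 10 and 115 reads. Of the WDR33 clusters 8 of 10 lay in a MANE Select intron, and so did all 6 clusters of SYMPK, another of the 5. Over the 5 genes 18 of 32 clusters lay in MANE Select 3′ UTRs.

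In the G1/S list 6 of 21 genes (28.6%) had clusters in all replicates. MDM4, an inhibitor of p53, had 112, 148 and 152 reads, and CCND2, cyclin D2, had 83, 131 and 107. CDKN1A had 92, 208 and 69 reads over a 3′ UTR of 1540 nt, or 857 normalised reads per kb ± 591 (SD, n = 3). Of the reads in replicate 3, all 69 were those of the shared site shown above.

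Of the list of sterol synthesis and uptake, 3 of 20 genes (15%) were counted. SCD, stearoyl-CoA desaturase, had 296, 23 and 30 reads, with replicate 1 far above the others, and LSS, lanosterol synthase, had 34, 53 and 12. Cytosolic DNA sensing genes also had 3 of 20 (15%). MAVS, the adaptor of RNA sensing, had 45, 52 and 57 reads, RELA, an NF-kappa B subunit, had 32, 31 and 27, and RNASEH2C, a subunit of RNase H2, had 57, 83 and 47. MAVS and RELA were even among replicates. All 35 clusters of the 3 genes lay in MANE Select 3′ UTRs.

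Of 87 cytosolic ribosomal protein genes and paralogues, 18 (20.7%) had clusters in all replicates. Most mRNAs of this class are known for very short 3′ UTRs, and 122 of the 184 clusters in the 18 genes lay in MANE Select 3′ UTRs. RPL28 had 181, 231 and 134 reads over an annotated 3′ UTR of up to 3756 nt. RPS29 had 223, 296 and 50 reads, and none of its 27 clusters lay in a MANE Select 3′ UTR. RPL13 had 127, 105 and 79 reads, with 8 of 21 clusters there and 13 downstream.

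The second comparison asked how often a 3′ UTR cluster was found again, meaning that it shared 1 nt or more, strand included, with a cluster of another replicate. Averaged over the other replicates, 13.4% ± 0.24 of 3′ UTR clusters were found, against 12% ± 0.38 of intron clusters (SD, n = 3). 3′ UTR clusters were thus ahead by 1.36 percentage points ± 0.59, with 1.8, 1.59 and 0.696 in replicates 1, 2 and 3 (p = 0.25 in an exact sign-flip test, the smallest that 3 replicates allow). Both other replicates had the site for 2.82% ± 0.17 of 3′ UTR clusters and neither had it for 76.1% ± 0.44.

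The difference depended on the read count. At 6 to 9 reads, 9.25% ± 0.33 of 3′ UTR clusters and 8.32% ± 0.64 of intron clusters were found. At 20 to 49 reads these were 22.5% ± 2.16 and 25.8% ± 3.27 (SD, n = 3), and the differences of -1.55, -5.52 and -3.03 percentage points were all below 0 (p = 0.25, exact test). Averaged over read-count bins weighted by the 3′ UTR clusters, the difference was -0.259 percentage points ± 0.50 (p = 0.5, exact test). This mean joins bins of opposite sign. The difference was above 0 in 3 of 3 replicates at 4 to 5 reads, by 0.437 points ± 0.22, and at 6 to 9 reads, by 0.933 ± 0.60, and below 0 in 3 of 3 from 20 reads (p = 0.25 for each, exact test).

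Recurrence was higher in genes bound in all replicates. There 17.1% ± 0.23 of 3′ UTR clusters were found again, and in the other genes 5.17% ± 0.22 (SD, n = 3). Genes enter the first set through having clusters in each replicate, so this is a description. Of the 1437 genes 9.53% had a site shared by all 3. Of the clusters that overlapped a 3′ UTR cluster, 98.7% ± 0.35 were of the 3′ UTR class too. Overlapping pairs of 3′ UTR clusters numbered 880, 926 and 896 for replicates 1 and 2, 1 and 3, and 2 and 3, and Spearman's rho of their reads, across pairs, was 0.303, 0.301 and 0.265.

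The third comparison concerned cluster length. The median was 41, 42 and 38 nt in replicates 1, 2 and 3, against 39, 40 and 37 nt for intron clusters, so 3′ UTR clusters were longer by 1.67 nt ± 0.58 (p = 0.25, exact test). Clusters over 100 nt made up 6.13% ± 1.39 of 3′ UTR and 4.35% ± 0.98 of intron clusters (SD, n = 3). At matched reads the direction depended on the bin. With 20 to 49 reads the mean length was 77.7 nt in 3′ UTRs and 84.3 nt in introns, a difference of -6.54 nt ± 0.83, below 0 in 3 of 3 replicates (p = 0.25, exact test). With 6 to 9 reads it was 0.289 nt ± 0.10, above 0 in 3 of 3 replicates (p = 0.25, exact test).

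The fourth comparison concerned T-to-C changes. At matched read counts a smaller share of reads carried T-to-C in 3′ UTR than in intron clusters. The difference was -1.09 percentage points ± 0.12 at 4 to 5 reads, -3.11 ± 0.84 at 6 to 9, -7.01 ± 0.90 at 10 to 19, -9.08 ± 1.2 at 20 to 49 and -7.45 ± 1.17 from 50 reads (SD, n = 3). It was below 0 in 3 of 3 replicates in each bin (p = 0.25 for each, exact test). Every listed cluster has at least 4 reads with T-to-C, which holds the share high in clusters with few reads. Averaged over bins it was -5.36 percentage points ± 0.82, with -4.68, -5.14 and -6.28 in replicates 1, 2 and 3.

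Counted per T position instead of per read, the direction depended on the read count. The difference was 0.469 percentage points ± 0.31 at 4 to 5 reads and 0.362 ± 0.14 at 6 to 9, above 0 in 3 of 3 replicates. It was -0.501 ± 0.13 at 20 to 49 reads and -0.684 ± 0.16 from 50 reads, below 0 in 3 of 3 (p = 0.25 for each of these bins, exact test). Averaged over bins of opposite sign it was 0.0585 ± 0.070 (p = 0.5, exact test). Intron clusters had more T in their sequence, 31.9% ± 0.88 of bases against 29.6% ± 0.69 (SD, n = 3); the part of this in the difference per read was not tested. From 20 to 49 reads, 3′ UTR clusters had 6.51 conversion locations ± 1.04 and intron clusters 7.40 ± 1.13.

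**Figure D3:**
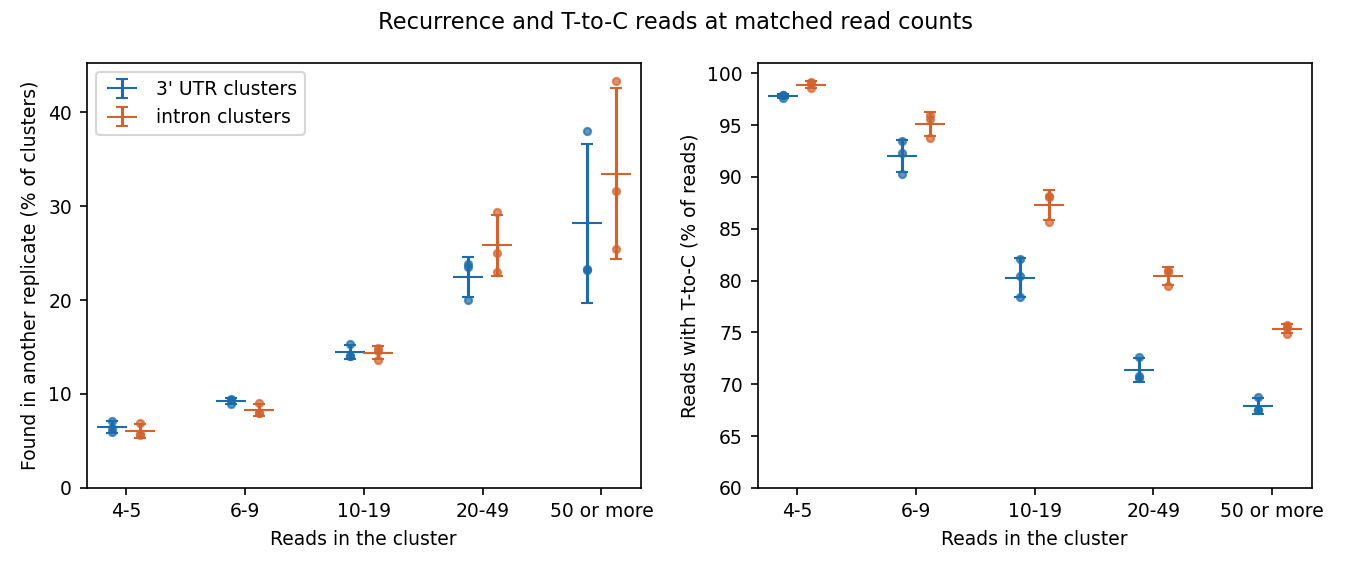
Share of clusters found in another replicate (left, percent of clusters) and share of reads with T-to-C (right, percent of reads, axis from 60), by the number of reads in the cluster, for 3′ UTR clusters (blue) and intron clusters (orange). Points are the 3 replicates, and bars give mean ± SD. In the right panel the 3′ UTR clusters lie below the intron clusters in each bin, with a difference of -9.08 percentage points at 20 to 49 reads.

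Clusters of the 3′ UTR class that lie in a MANE Select intron were then set beside the others, a comparison chosen after the annotation check. Of their reads 85.4% ± 0.60 had T-to-C, against 77.6% ± 0.86 in clusters within MANE Select 3′ UTRs (SD, n = 3). At matched read counts the former exceeded the latter by 5.03 percentage points ± 1.54, with 3.25, 5.87 and 5.98 in replicates 1, 2 and 3 (p = 0.25, exact test). Against clusters of the intron class they differed by -0.532 ± 0.93, within the spread, with -1.48, 0.372 and -0.486 in replicates 1, 2 and 3 (p = 0.5, exact test). Their T content was 29.8% ± 0.19 of bases, near the 29.5% ± 0.75 of those in MANE Select 3′ UTRs.

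The fifth comparison asked how the sequence of 3′ UTR clusters differs from that of their surroundings. Every listed cluster has at least 4 reads with T-to-C and 2 conversion locations, so each must hold T, a condition that flanks do not have. The part of this in the base, 5-mer and motif differences from flanks was not tested. Flanks were taken 200 nt upstream and downstream, each as long as its cluster, and 88.2% ± 0.81 lay wholly in annotated 3′ UTR exons (SD, n = 3). Clusters had 26.1% C ± 0.092 against 23.8% ± 0.10 in flanks, and 21.0% A ± 0.11 against 23.9% ± 0.11. Both differences, of 2.36 and -2.91 percentage points, had the same sign in 3 of 3 replicates (p = 0.25 for each, exact test). The T content exceeded the flanks by 0.869, 0.0676 and 0.875 points in replicates 1, 2 and 3, so replicate 2 showed almost none of it. A run of at least 5 pyrimidines was present in 78.9% ± 0.93 of clusters and 70.1% ± 1.40 of flanks. Intron clusters held one in 79.0% ± 1.23, so this trait is not particular to 3′ UTR clusters.

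All 5-mers were ranked by the log2 ratio of their density in clusters to that in flanks. TCTTC led with 0.89 ± 0.15, followed by CTTCT with 0.75 ± 0.10, CTTCC with 0.73 ± 0.06, CTCTT with 0.68 ± 0.09 and TTCTC with 0.66 ± 0.08 (SD, n = 3). TTCCC had 0.66 ± 0.04, and the tenth in rank, TTCCT, had 0.62 ± 0.09. All 10 leading 5-mers consisted of C and T only. Against intron clusters their log2 ratios went from -0.30 for TCTTC to 0.11 for TTCCC. The median ratio to introns of all 32 5-mers of C and T was -0.07. The ranking was shared by the replicates, with Spearman's rho of 0.829, 0.833 and 0.816 across 5-mers.

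Of the 32 5-mers made of C and T, 31 were above 0 in all 3 replicates, against 29.9% of all 1024. The exception was TTTTT, whose density was lower in clusters than in flanks, by -0.75 ± 0.08. A ratio above 0.5 in all 3 replicates was reached by 12 5-mers (1.17%). The lowest means were those of AACGA at -1.71 ± 0.49, AAAAA at -1.37 ± 0.01, GACGA at -1.33 ± 0.36, ACGAT at -1.29 ± 0.26 and CGAAA at -1.24 ± 1.02. Of the 10 lowest 8 held CG, and 5-mers with CG are rare in these sequences, so their ratios rest on few counts.

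**Figure D4:**
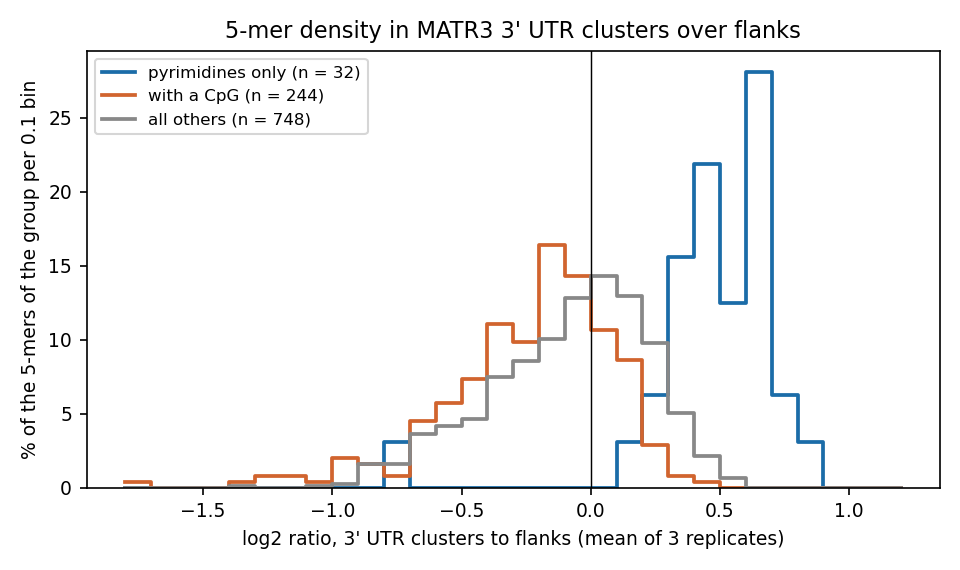
Distribution of log2 ratios of 5-mer density in MATR3 3′ UTR clusters to flanks 200 nt away (horizontal axis, mean of 3 replicates), as the percentage of each group per bin of 0.1. The 32 5-mers of pyrimidines only lie to the right of 0 with 1 exception, with a median of 0.50, while the 244 with a CpG have a median of -0.18.

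ATCTT occurred 1.84 times per kb ± 0.22 in 3′ UTR clusters and 1.27 ± 0.032 in flanks, and 8.20% ± 0.70 of clusters held it. The log2 ratio was 0.52 ± 0.14, above 0 in 3 of 3 replicates (p = 0.25, exact test), and its rank among the 5-mers was 17. Intron clusters had more of it, 2.38 per kb ± 0.17, with a log2 ratio of -0.38 ± 0.08 for 3′ UTRs over introns. So ATCTT was denser than in the flanks and less dense than in intron clusters.

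Motifs known for PTB behaved alike. CTCTT was present 3.25 times per kb ± 0.15 in 3′ UTR clusters, 2.02 ± 0.052 in flanks and 3.93 ± 0.33 in intron clusters. The log2 ratio to flanks was 0.64 ± 0.12 for CTTTC, 0.47 ± 0.13 for TCTTT and 0.60 ± 0.12 for CTCTCT. Their ratios to introns went from -0.45 to -0.16. Against flanks these 4 were above 0, and against introns below 0, in 3 of 3 replicates (p = 0.25 for each, exact test).

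Elements typical of 3′ UTRs were not concentrated in the clusters. AATAAA, the main poly(A) signal, occurred 0.309 times per kb ± 0.019 in clusters and 0.607 ± 0.018 in flanks, a log2 ratio of -0.98 ± 0.12. ATTAAA, its common variant, had -0.89 ± 0.20. ATTTA, the core of AU-rich elements, had -0.40 ± 0.11, and ACTAA, the core bound by QKI, had -0.68 ± 0.16.

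TGTANATA, the motif of Pumilio proteins, had -0.35 ± 0.23 over 116 matches in clusters of all replicates, and TGTGT had -0.15 ± 0.09. GCATG, the core bound by RBFOX proteins, had 0.08 ± 0.11, within the spread, though above 0 in 3 of 3 replicates. Against intron clusters AATAAA was more frequent in 3′ UTR clusters, with 0.68 ± 0.02. TGTANATA had 0.69 ± 0.42 against introns, GCATG 0.18 ± 0.13 and TGTGT 0.07 ± 0.07, each above 0 in 3 of 3 replicates. ATTTA had -0.12 ± 0.10, ACTAA -0.10 ± 0.20 and ATTAAA -0.01 ± 0.22.

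The sixth comparison placed the clusters along the 3′ UTR, from 0 at the stop codon to 1 at the end of the longest annotated 3′ UTR that holds the midpoint. The median position was 0.495, 0.492 and 0.483 in replicates 1, 2 and 3, and the median of those 3′ UTRs was 3351 nt ± 39.1 (SD, n = 3). Clusters were spread almost evenly. Of 10 equal segments the first held 8.89% ± 0.086, the last 7.80% ± 0.18 and each of the others between 9.86% and 10.7% (SD, n = 3). In 3′ UTRs from 4000 nt the median position was 0.465 ± 0.015, and in those under 1000 nt it was 0.514 ± 0.016. The isoform in use is not known from these data, and the shortest annotated 3′ UTR gave a median of 0.527.

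**Figure D5:**
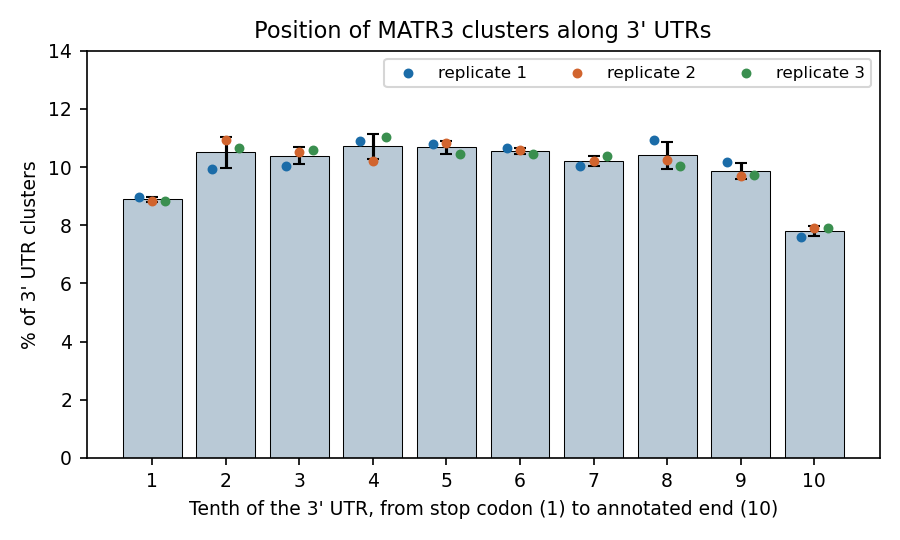
Share of MATR3 3′ UTR clusters (vertical axis, percent) in each of 10 equal segments of the longest annotated 3′ UTR, from the stop codon (1) to the annotated end (10). Bars are means with SD and points are the 3 replicates. The last segment is lowest at 7.80%, and segments 2 to 9 lie between 9.86% and 10.7%.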

How the data were processed

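The authors deposited 1 cluster table per replicate, called in each separately. Per the file headers, read, distinct read, conversion location and event numbers are whole counts, the deposited T-to-C read share is a fraction from 0 to 1, conversion specificity is log10 and the mode score is a score; the last pair was not used. The build is hg38 per the submitters' processing notes; aligner, caller and annotation release are not given in the sources used here. All 3′ UTR cluster sequences equalled hg38. Every listed cluster has at least 4 reads and 2 conversion locations.

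Rows classed as 3′ UTR were kept per replicate. Gene names were matched to GENCODE 44, or through older symbols in the RefSeq table, for 4541 of 4566 genes. Densities of 5-mers had 0.5 added to each count. Tests were exact two-sided sign-flip permutation tests over the 3 replicates, whose smallest p is 0.25, so no adjustment over them could bring any under 0.05. Named were MATR3, the 25 genes and 12 sites with most reads, the members of 9 lists with most reads, and the 10 genes with most reads overall. Results of 2 genes that the rule names are not reported here. Members, lists and rules were chosen with earlier results of these data known. Scripts were tested on simulated data (Python 3.11.15, pandas 2.3.3, NumPy 2.4.6, SciPy 1.17.1, BLAST 2.17.0).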

Additional observations from a re-analysis of the deposited data

How the results depend on the processing

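No paired analysis was possible because there is only 1 group and so no pairing of groups; differences between classes of clusters were taken within each replicate. Over 8 results, 69 values were recomputed, and 58 kept their direction, stayed within the spread or, for the gene count, within 1.5 times. The 5 tested differences cannot pass 0.05 with 3 replicates, so staying on one side of it says nothing about stability. The difference in recurrence was -0.259 percentage points within read-count bins, 0.548 with an overlap of 50% of both clusters, and 0.732 from 3 distinct reads and 0.744 from 3 conversion locations, where replicate 3 turned to -0.429 and -0.229 (p = 0.5 for both, exact test). The length difference was 1 nt from 3 distinct reads, 3 nt from 3 conversion locations and 3.71 nt for means. The T-to-C difference was -9.16 points without matching, and the excess of T was 1.10 points with flanks 500 nt away. In the other direction, the T-to-C difference was 0.0585 when counted per T, and ATCTT had a log2 ratio of -0.38 against intron clusters. Genes with clusters in all replicates numbered 779 with at least 3 conversion locations and 664 with at least 2 clusters per gene. The median position was 0.527 on the shortest annotated 3′ UTR. The mean rho per gene was 0.513 for clusters from the median read count up, 0.535 from 3 distinct reads, 0.480 from 3 conversion locations, and Pearson's r was 0.599. Fewer clusters enter under the stricter limits; otherwise the cause was not tested. Leaving out each replicate gave 1828 to 1862 genes in both others, differences of 1.22 to 1.57 points in recurrence, 1.5 to 2 nt in length, -5.71 to -4.91 points in T-to-C reads and 0.468 to 0.872 points in T content, ATCTT ratios of 0.47 to 0.60, positions of 0.487 to 0.493 and rho of 0.575 to 0.589. With flanks inside annotated 3′ UTR exons only, the excess of T was 0.274 points ± 0.46, within the spread. Restricting the clusters to MANE Select 3′ UTRs, chosen after seeing the data, left 1271 genes.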

Other observations

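Sequence related to 7SL RNA, from which Alu repeats derive, was searched in windows around the cluster midpoints with BLAST (E-value up to 1e-05), a search chosen after seeing the data. A match to RN7SL1 was present around 3.74% ± 0.34 of 3′ UTR clusters, 9.51% ± 0.40 of windows centred on the flanks 500 nt away and 9.26% ± 0.53 of intron clusters (SD, n = 3). The difference from flanks was -5.77 percentage points ± 0.18, with -5.97, -5.64 and -5.68 in replicates 1, 2 and 3 (p = 0.25, exact test). Each window had 301 nt, and whether the flank windows lay in 3′ UTRs was not checked. Around intron clusters antisense matches were more frequent than sense matches, 6.82% ± 0.33 against 2.49% ± 0.23. Around 3′ UTR clusters they were 2.13% ± 0.13 and 1.62% ± 0.21. How the authors treated reads that map to several places is not given in the sources used here, and its part in these shares was not tested.

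The deposited mode position, the peak of each cluster, was a T in 27.6% ± 1.72 of 3′ UTR clusters (SD, n = 3), close to the T content of whole clusters, so it does not mark the converted base. In overlapping clusters of different replicates the modes lay within 5 nt of each other in 13.6%, 16.2% and 12.8% of pairs for replicates 1 and 2, 1 and 3, and 2 and 3.

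Clusters classed as spanning a 3′ UTR and an intron, which the rule leaves out, were few, with 12, 17 and 3 ending in an intron and 27, 30 and 21 ending in a 3′ UTR by the order of the class names.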
